A study of Mus musculus with 12 samples.

Results

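The Kit locus is described here as the DNase I hypersensitive peaks that overlap mm9 chr5:75840000-76070000. The window holds Kit itself, on the plus strand from about 75.971 to 76.053 Mb, and the stretch upstream of it that carries its distal elements. A peak belongs to the locus by position alone. Merging the overlapping peaks of the 12 replicate lists gave 63 regions in the window, of 265371 in the whole genome. The 12 lists placed 397 peaks there, and with the 4 lists that the authors called on pooled replicates the number was 535 of 1600000.

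Kit encodes the receptor tyrosine kinase for stem cell factor, which early red cell progenitors, mast cells, melanocytes and germ cells need in order to survive and divide. In the red cell lineage Kit is expressed in progenitors and is switched off during terminal differentiation. GATA2 and GATA1 are transcription factors that recognise the same DNA motif, and Kit is a known example of a gene at which GATA1 takes the place of GATA2 as cells mature. DNase I cuts DNA more readily where it is not wrapped in nucleosomes, so a peak marks an accessible stretch such as a promoter or enhancer.

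DNase-seq was done on mouse G1E and G1E-ER4 cells, with 3 libraries in each of 4 groups. G1E is an immature red cell precursor line made from strain 129 embryonic stem cells in which Gata1 was disrupted by gene targeting, and it has no GATA-1. G1E-ER4 is its subline with an inducible GATA-1, and every G1E-ER4 library came from cells given 100 nM estradiol for 22 h. No G1E library had estradiol and no G1E-ER4 library was without it, so restored GATA-1, the hormone and the subline cannot be told apart. Mitotic cells of either line had 200 ng/ml nocodazole for 7 h and were sorted for histone H3 phosphorylated at serine 10, so arrest, drug and sorting cannot be told apart either. Asynchronous cells had neither. All groups were lightly fixed with formaldehyde before DNase I digestion. The labels do not say that replicates were separate cultures, so p-values measure the spread between these libraries, which may be technical. Surface markers in the labels place G1E among Ter119-negative cells with and without CD71, and G1E-ER4 among cells with both markers. No RNA was measured here, so the level of Kit itself and the identity of the cells were not analysed.

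Each list holds exactly 100000 peaks in order of the signal that the authors' caller gave, and strength is given below as the rank of a peak in its list, 1 being the strongest. A missing peak means only that the site did not reach the list. Sequencing depth is unknown. Sites are named by the distance of their summit from the Kit start at 75.971 Mb, known to about 1 kb. The rank score of a region in a list is the log2 of 100001 divided by the rank of its best peak, and 0 with no peak, so a difference of 1 is a factor of 2 in rank. Replicate 1 of asynchronous G1E stands apart in the window in its peak shapes. It covered 155.5 kb of the 230001 bp with peaks, against 12.8 to 73.0 kb in the other 11 lists, and a single peak of 30242 bp ran from the promoter deep into the gene.

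The Kit promoter is shown because all 12 lists held a summit there and it is the start of the gene. The sequence runs from 250 bases before to 50 after the start of Kit on the plus strand of chromosome 5 (RefSeq, GRCm38.p6). Capitals mark a GC box match and an E-box match.
Kit promoter: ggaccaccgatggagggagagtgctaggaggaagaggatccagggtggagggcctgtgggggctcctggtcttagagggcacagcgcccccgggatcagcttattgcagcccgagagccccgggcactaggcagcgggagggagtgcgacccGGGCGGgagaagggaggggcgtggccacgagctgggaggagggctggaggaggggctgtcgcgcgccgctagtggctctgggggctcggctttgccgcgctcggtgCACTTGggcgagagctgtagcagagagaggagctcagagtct
Letters were searched on both strands in the same 300 bases of 32851 promoters. The GC box GGGCGG occurred once, at offset -98 from the start, and 35.7% of promoters hold it. The E-box CANNTG occurred once, at offset 8, and 72.3% hold one. The CACC box CCACCC occurred once on the minus strand, left in lower case, and 31.5% hold it. GATA motifs (AGATAA or AGATAG or, with a T first, TGATAA or TGATAG) had 0 matches in these letters, and 29.8% of promoters hold at least 1. An E-box followed by GATA at the spacing known for GATA1 and TAL1 complexes had 0 matches as well, against 1.66% of promoters. The window is rich in G and C, at 69.0% against a median of 52.7%. No letters of the distal sites are printed, because no mm9 sequence was used here.

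The Kit window had fewer peaks in G1E-ER4 than in G1E. Asynchronous G1E lists held 60, 48 and 53 peaks, a mean of 53.7 ± 6.03 (SD, n = 3). Asynchronous G1E-ER4 lists held 25, 24 and 27 (25.3 ± 1.53, SD, n = 3). In mitosis the G1E lists held 49, 28 and 27 (34.7 ± 12.4, SD, n = 3) and the G1E-ER4 lists 20, 20 and 16 (18.7 ± 2.31, SD, n = 3). The lines did not overlap at either stage. Averaged over the stages, G1E-ER4 had fewer peaks, by a difference of -22.2 (two-sided exact permutation test within stage, p = 0.005, the smallest p the 400 arrangements can give). Of 10036 genome windows of the same length, Kit's included, 4.87% had fewer peaks in G1E-ER4 by the same test (9.29% in either direction). A difference at least as low as the Kit window's was seen in 34 of them, or 0.339%, the Kit window itself counted. After Benjamini-Hochberg adjustment over these windows the Kit window had an adjusted p of 0.290, and 0 windows passed 0.05. The window's share of the peaks on chromosome 5 was 0.382% to 0.973% in the 6 G1E lists and 0.274% to 0.400% in the 6 G1E-ER4 lists.

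Mitosis went with fewer peaks as well. The difference between mitotic and asynchronous lists was -12.8 peaks (exact permutation test within line, p = 0.01), with -19 in G1E and -6.67 in G1E-ER4. Of all windows, 11.9% had fewer peaks in mitosis by this test (20.5% in either direction), and the adjusted p of the Kit window was 0.107. Without replicate 1 of asynchronous G1E the p was 0.06, and without its replicate 3 it was 0.05. Replicate 1 of mitotic G1E, with 49 peaks, fell within the range of the asynchronous G1E lists. The difference between lines was not shown to vary with stage (12.3 peaks, exact permutation p = 0.51).

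**Figure D1:**
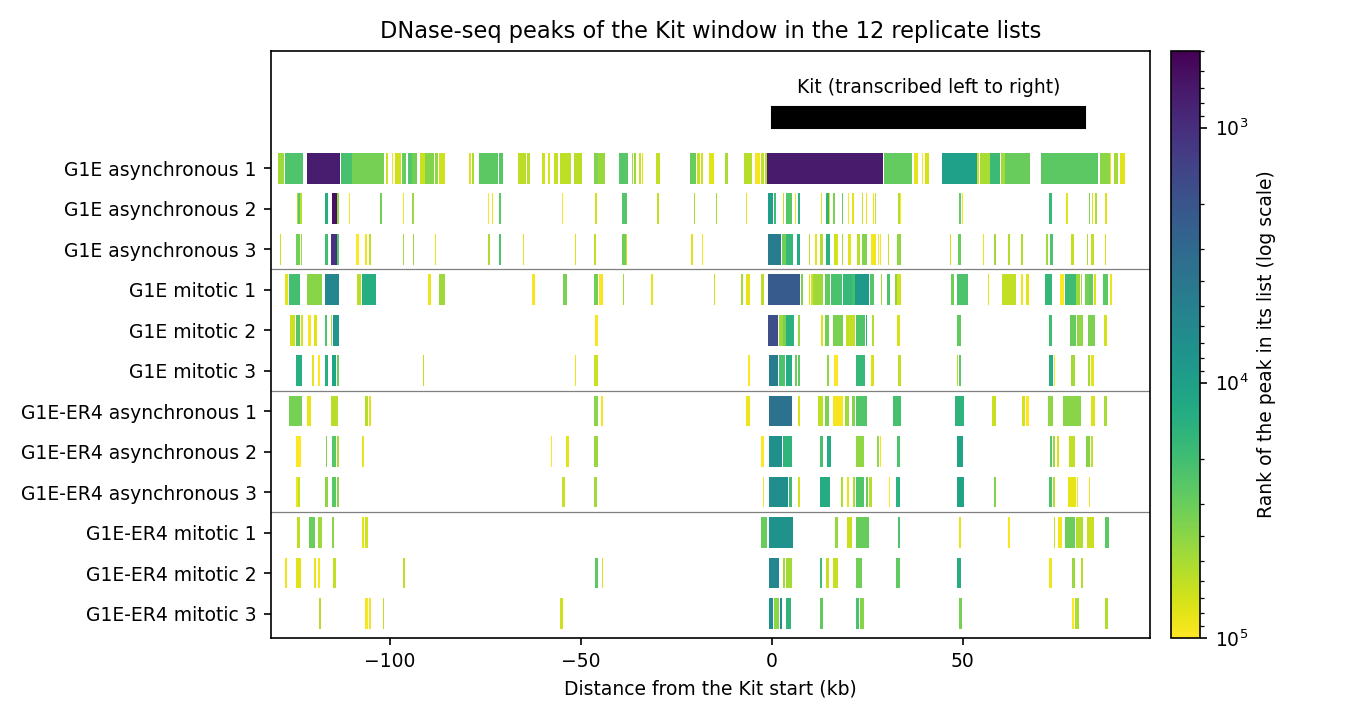
Peaks of the 12 replicate lists along the Kit window, 1 row per list, with distance from the Kit start in kb on the horizontal axis and colour giving the rank of each peak. The upstream side is crowded in asynchronous G1E and sparse in G1E-ER4, and the promoter peak stands in all 12 rows.

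Peaks were also counted upstream of the gene and within it. Upstream of Kit the lists of asynchronous G1E held 45, 21 and 22 peaks, mitotic G1E 19, 10 and 11, asynchronous G1E-ER4 9, 10 and 9, and mitotic G1E-ER4 7, 9 and 6. The line difference there was -13 peaks (exact permutation p = 0.005) and the stage difference -9 (p = 0.015). Within the gene the counts were 10, 23 and 28 in asynchronous G1E, 25, 16 and 14 in mitotic G1E, 14, 12 and 17 in asynchronous G1E-ER4, and 11, 11 and 9 in mitotic G1E-ER4. The gene's line difference of -7 peaks did not pass (exact permutation p = 0.06), and neither did its stage difference of -3 (p = 0.39). Without replicate 1 of asynchronous G1E, a check added after seeing the data, the line difference was -9.08 peaks upstream and -9.58 in the gene (exact permutation p = 0.005 for both). The gene difference also passed without replicate 3 of mitotic G1E (-8.08 peaks, exact permutation p = 0.045). The upstream stage difference did not pass without replicate 1 of asynchronous G1E (-5.08 peaks, exact permutation p = 0.08), or without replicate 2 (-8.17 peaks, p = 0.115) or replicate 3 (-8.42 peaks, p = 0.1) of mitotic G1E. The widest peak of asynchronous G1E replicate 1 lies over 29.1 kb of the 82 kb of the gene, and its part in that list's 10 gene peaks was not tested. Whether upstream and gene differ in their loss was not tested. The p-values of these parts of the window were not adjusted, and no share over other windows was computed for them.

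Length under whole peaks did not pass the test, whereas its share of the length under peaks on chromosome 5 did. Asynchronous G1E lists covered 155.5, 20.9 and 34.6 kb, mitotic G1E 73.0, 33.0 and 22.7 kb, asynchronous G1E-ER4 41.4, 23.8 and 26.5 kb, and mitotic G1E-ER4 29.1, 18.2 and 12.8 kb. The line difference was -31.3 kb (exact permutation p = 0.165, with 3.49% of windows lower in G1E-ER4 and 8.45% called in either direction) and the stage difference -19.0 kb (p = 0.495, with 8.86% lower in mitosis and 13.1% in either direction). Replicate 1 of asynchronous G1E set both sizes: without it the line difference was -10.0 kb and the stage difference 2.28 kb. With 300 bp around each summit the line difference was -6.65 kb (exact permutation p = 0.005) and the stage difference -3.85 kb (p = 0.01). Every peak then has the same length, so these values repeat the peak counts and say nothing more about length. As a share of the length under peaks on chromosome 5 the line difference was -0.628 percentage points (exact permutation p = 0.005) and the stage difference -0.461 (p = 0.025).

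**Figure D2:**
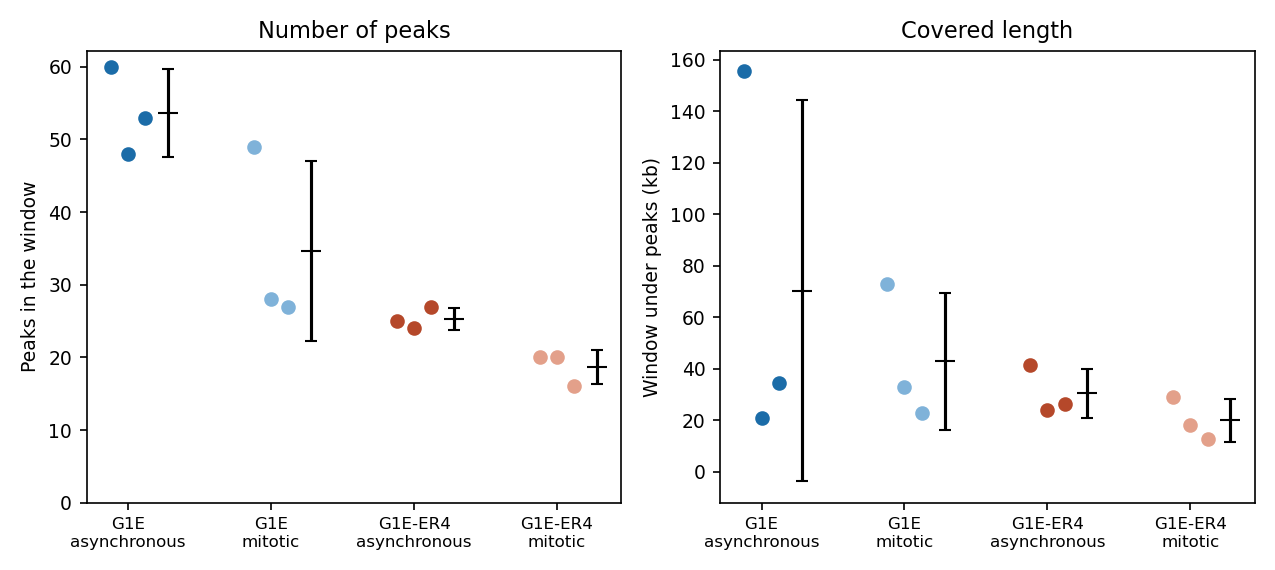
Number of peaks (left) and kilobases under peaks (right) in the Kit window, 1 point per list and a bar with whiskers for the mean and SD of each group of 3. Peak numbers fall from 48 to 60 in asynchronous G1E to 16 to 20 in mitotic G1E-ER4, while 1 asynchronous G1E list stands far above the rest in covered length.

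The site at -114.3 kb, an upstream element at chr5:75856345-75856999, held the strongest peak of the window in asynchronous G1E replicates 2 and 3. Earlier work in this cell system describes a GATA-bound enhancer of Kit far upstream of the gene. The peak at -114.3 kb ranked 764, 617 and 1073 in asynchronous G1E. In mitotic G1E it ranked 5812, 7995 and 11003. In asynchronous G1E-ER4 it ranked 56808, 24965 and 25225. These 3 groups did not overlap, and all 3 lists of asynchronous G1E-ER4 kept a peak at the place, at ranks of 24965 and weaker.

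In mitotic G1E-ER4 only replicate 2 had a peak with its summit in the element, ranked 60508. Replicate 1 had its nearest summit at -114.8 kb, ranked 38369, and replicate 3 had none nearer than a peak at -118.1 kb ranked 54945. The merged region, 8467 bp long because some peaks there are wide, therefore has ranks of 29938, 60508 and 54945 in this group, from peaks that mostly lie beside the element. The 10 summits within the element spanned 355 bp. Peak width at the element was 8453, 1119 and 1539 bp in asynchronous G1E, 3499, 1747 and 1094 bp in mitotic G1E, 2000, 1191 and 887 bp in asynchronous G1E-ER4, and 720 bp in the 1 mitotic G1E-ER4 list.

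The mean rank score of the -114.3 kb region was 6.97 ± 0.40 in asynchronous G1E, 3.64 ± 0.46 in mitotic G1E, 1.60 ± 0.68 in asynchronous G1E-ER4 and 1.11 ± 0.55 in mitotic G1E-ER4 (SD, n = 3 each). G1E-ER4 was lower than G1E in asynchronous cells by a score difference of -5.37 (SE 0.46, limma adjusted p = 0.000413), a factor of 41.4 in rank. The call held in 18 of 18 alternatives, with adjusted p from 0.000163 to 0.0240. In mitotic cells the difference was -2.53 (SE 0.46, limma adjusted p = 0.0187), and counting only summits it was -3.40 (SE 0.52, adjusted p = 0.0102). That call was lost without mitotic G1E replicate 2 (adjusted p = 0.0563), without mitotic G1E-ER4 replicate 3 (0.0525) and with no filter on regions (0.0578).

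The element was also lower in mitotic than in asynchronous G1E, by a score difference of -3.33 (SE 0.46, limma adjusted p = 0.00166), a factor of 10.0 in rank. On a linear rank scale this difference did not pass (adjusted p = 0.622). In G1E-ER4 the stage difference of the merged region was -0.49 (limma adjusted p = 0.649). Counting only summits in the element it was -1.36 (SE 0.52, limma adjusted p = 0.212). The line difference was not shown to vary with stage, at 2.84 (SE 0.65, limma adjusted p = 0.0717). With the 50000 strongest peaks of each list it was 2.91 (adjusted p = 0.0419), and on the linear scale -0.0535 (adjusted p = 0.879). Counting only summits, this line by stage difference was 1.97 (limma adjusted p = 0.375). The authors' pooled lists gave the element ranks of 680 in asynchronous G1E, 7248 in mitotic G1E and 31363 in asynchronous G1E-ER4, and the nearest summit of mitotic G1E-ER4 was at -114.8 kb, ranked 62319.

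**Figure D3:**
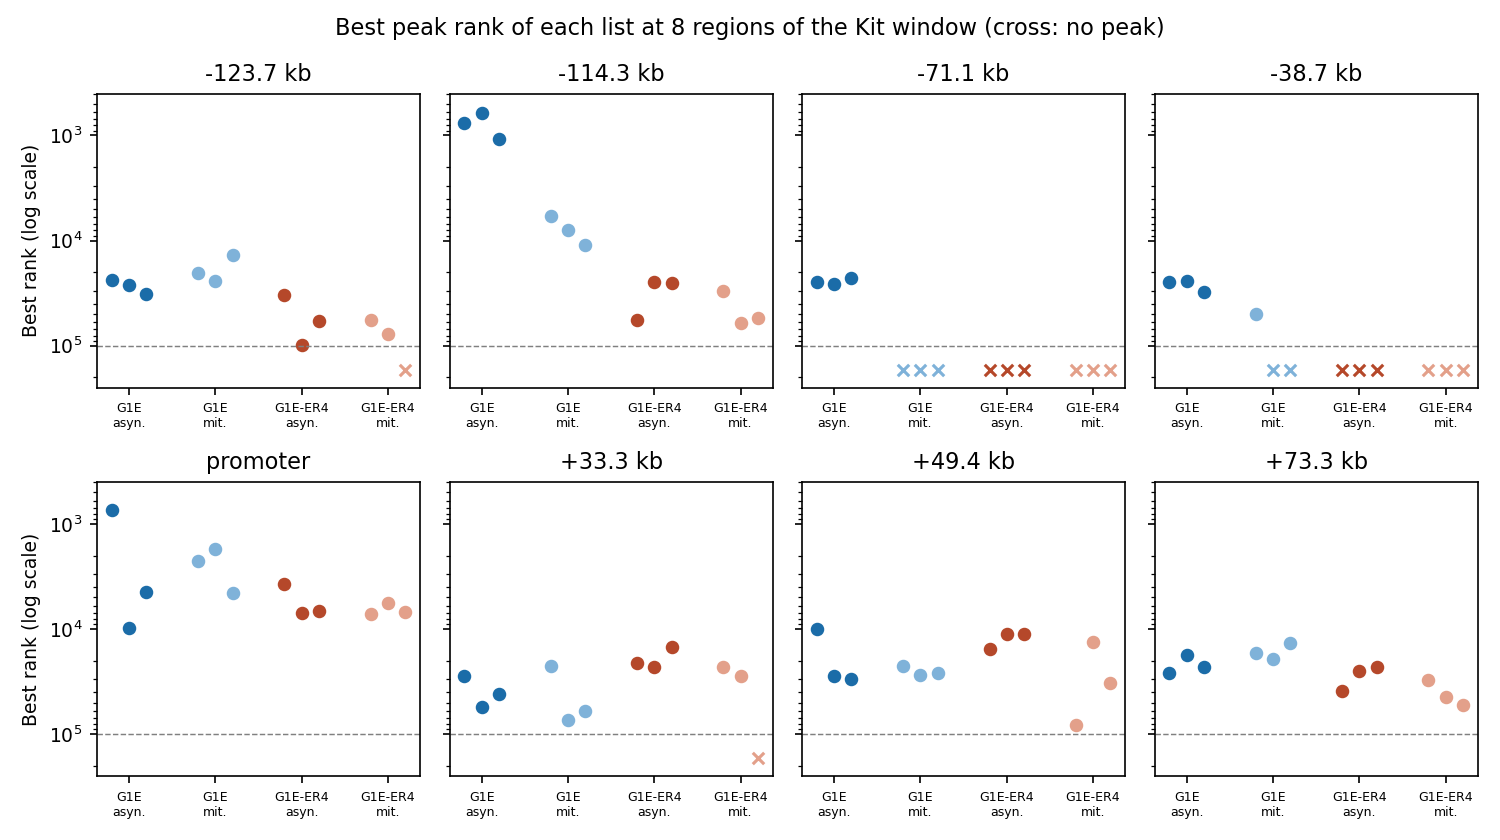
Rank of the best peak anywhere in named merged Kit regions in each of the 12 replicate lists, on a log axis with strong peaks at the top. The dashed line marks the end of the list at 100000, and crosses beyond it stand for lists without a peak. The -114.3 kb site drops from ranks of 617 to 1073 in asynchronous G1E to 24965 and weaker in G1E-ER4, while the promoter keeps ranks of 737 to 9702 in all 12 lists.

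Of the 63 regions, 23 were in at least 3 of the 12 lists and entered the fit over 103666 regions. In asynchronous cells 6 of the 23 were lower in G1E-ER4 and 0 higher, where 7.65% of all regions tested were called lower and 4.07% higher (11.7% in all). The median score difference of the 23 was -0.48, against 0.09 over all regions. In mitosis 2 of the 23 were lower in G1E-ER4 and 0 higher, where 0.577% of all regions were called lower and 0.462% higher (1.04% in all). Mitotic against asynchronous G1E gave 6 lower and 0 higher, where 11.1% of all regions were called lower and 5.06% higher (16.1% in all). Mitotic against asynchronous G1E-ER4 gave 0 calls by limma, with 1 of 23 regions at an unadjusted p under 0.05 (18.7% of all regions), where 3.98% of all regions were called lower and 0.613% higher (4.6% in all). The test of line by stage gave 0 calls, with 7 of 23 regions at an unadjusted p under 0.05 (13.6% of all regions), and 0% of all regions were called.

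These counts lean on the asynchronous G1E lists. Of the 7 regions called in any contrast, 4 entered the test only because all 3 asynchronous G1E lists held them and no other list did, so they had to differ and support nothing by themselves. They lie at -93.8, -74.1, -71.1 and -20.1 kb. These 4 are also among the 7 regions at an unadjusted limma p under 0.05 for line by stage, and support nothing there either. Without replicate 1, 2 or 3 of asynchronous G1E they fall below 3 lists, and the count of regions lower in asynchronous G1E-ER4 was then 2, 3 and 2. The count of regions lower in mitotic G1E was then also 2, 3 and 2. The other 3 called regions are those at -123.7, -114.3 and -38.7 kb.

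The -38.7 kb site was an upstream region of G1E alone. Its peaks ranked 24835, 24120 and 31061 in asynchronous G1E and 50254 in 1 mitotic G1E list, with no peak in the other 2 mitotic G1E lists or in any of the 6 G1E-ER4 lists. The 4 summits lay within 246 bp in chr5:75931946-75932491. The line difference in asynchronous cells was -1.92 (SE 0.36, limma adjusted p = 0.00350) and the stage difference in G1E -1.59 (SE 0.36, adjusted p = 0.00881). Both calls held in 17 of the 17 alternatives that tested the region, with limma adjusted p up to 0.0161 and 0.0356. Without both replicate 1 libraries of G1E it fell below 3 lists and was not tested. The asynchronous G1E lists, where the region is high, met the filter of 3 lists alone. Its calls therefore give little support by themselves.

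The -71.1 kb site ranked 24607, 25617 and 22638 in asynchronous G1E, with all 3 summits within 15 bp, and had no peak in the other 9 lists. The authors' pooled lists held it at rank 23467 in asynchronous G1E and at rank 67631 in mitotic G1E. The -93.8 kb site, with summits within 25 bp, ranked 30997, 44902 and 46086 in asynchronous G1E and was absent from the other 9 lists. The merged region at -74.1 kb ranked 26202, 83874 and 50877. Its 3 summits within 29 bp ranked 26202, 98947 and 50877, and the replicate 2 peak ranked 83874 had its summit at -73.1 kb. The region at -20.1 kb ranked 29401, 50579 and 76742, the last from a summit at -20.7 kb. It lies outside the 15 that the naming rule gave and was added after its values were seen. The score differences between lines in asynchronous cells were -2.04 at -71.1 kb, -1.32 at -93.8 kb, -1.05 at -74.1 kb and -1.04 at -20.1 kb. The call at -74.1 kb, with a limma adjusted p of 0.0484, was lost in 11 of 13 alternatives, at adjusted p from 0.0547 to 0.225. The call at -93.8 kb, with a limma adjusted p of 0.00332, was lost in the 50000 strongest peaks (0.140). All of these regions entered the test through the asynchronous G1E lists alone, so they had to differ. Their differences, p-values and alternatives support nothing by themselves.

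The most distal named site, at -123.7 kb, behaved in another way. It ranked 23477, 26580 and 31900 in asynchronous G1E, 20445, 24291 and 13861 in mitotic G1E, and 33114, 98553 and 58782 in asynchronous G1E-ER4. In mitotic G1E-ER4 it ranked 57416 and 76642 and was missing from the third list. All 6 G1E lists ranked it above all 6 G1E-ER4 lists. The fitted line difference was -1.09 in asynchronous cells (limma adjusted p = 0.145) and -2.00 in mitotic cells (SE 0.45, adjusted p = 0.0496). The mitotic call was lost in 13 of 18 alternatives, at adjusted p from 0.0552 to 0.144. Over both stages the difference was -1.54 (exact permutation p = 0.005, the smallest possible; adjusted over all regions 0.121). In G1E the stage difference at -123.7 kb was 0.51 and did not pass the threshold.

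The other 4 named upstream sites had at least 1 peak in each line, at ranks of 13245 and weaker. The -46.0 kb site ranked 36225, 68844 and 61156 in asynchronous G1E, 31723, 95718 and 65827 in mitotic G1E, 38666, 44211 and 46947 in asynchronous G1E-ER4, and 26526 in replicate 2 alone of mitotic G1E-ER4. The merged -106.1 kb region, 8310 bp long, ranked 33088, 32231 and 61559 in asynchronous G1E, 13245 in 1 mitotic G1E list, 54890 and 83484 in 2 asynchronous G1E-ER4 lists, and 70241 and 58777 in 2 mitotic G1E-ER4 lists. Its summits ran from -109.1 to -101.6 kb, and only 4 lists had one at -106.1 kb. The merged -54.2 kb region had peaks in 6 lists, with summits from -54.8 to -53.2 kb, of which the best ranked 34618. At -96.3 kb the ranks were 29124, 92837 and 49820 in asynchronous G1E and 58617 in replicate 2 of mitotic G1E-ER4, with no peak in the other 8 lists.

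The promoter was accessible in all 12 lists, and none of its 4 differences between groups passed the limma test. It ranked 737, 9702 and 4398 in asynchronous G1E, 2234, 1746 and 4510 in mitotic G1E, 3700, 6991 and 6711 in asynchronous G1E-ER4, and 7268, 5684 and 7059 in mitotic G1E-ER4. In asynchronous cells the lines overlap, and the G1E lists alone run from 737 to 9702. In mitotic cells all 3 G1E lists ranked the promoter above all 3 G1E-ER4 lists. The mean scores of the merged promoter region were 5.26 ± 0.71 and 3.93 ± 0.19 (SD, n = 3 each). How many regions of the genome separate in this way was not counted. All 12 summits lay within 284 bp in chr5:75970782-75971365. The fitted line difference of the promoter region was -0.82 (SE 0.73, limma adjusted p = 0.568) in asynchronous and -1.34 (SE 0.73, adjusted p = 0.497) in mitotic cells. Its stage difference was 0.28 in G1E (adjusted p = 0.863) and -0.24 in G1E-ER4 (adjusted p = 0.963). A p that misses the threshold does not show that the promoter was alike in the groups. In mitotic G1E-ER4 replicate 3 the best peak of the promoter region was another one, at +2.5 kb, ranked 6886. The peak on the promoter was 30242, 1114 and 3499 bp wide in asynchronous G1E, 8428, 2821 and 2408 bp in mitotic G1E, 6173, 3554 and 5119 bp in asynchronous G1E-ER4, and 6332, 2743 and 1119 bp in mitotic G1E-ER4.

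Sites further into the gene are merged with the promoter into 1 region by the 30242 bp peak of asynchronous G1E replicate 1, and a wide peak has 1 summit, so a missing summit here can lie under a wide peak. At +4.9 kb 8 lists had a summit of their own, ranked 13103 to 48448, and all 12 lists covered the place. The +7.2 kb summit ranked 14554 and 12343 in 2 asynchronous G1E lists, 42138 and 27533 in 2 mitotic G1E lists, and 74282 and 67405 in 2 asynchronous G1E-ER4 lists, with none in mitotic G1E-ER4. The +14.8 kb summit, within 63 bp in 9 lists, ranked 15797 and 14853 in asynchronous G1E, 27459, 31993 and 40690 in mitotic G1E, 34803, 12767 and 12964 in asynchronous G1E-ER4, and 62500 in 1 mitotic G1E-ER4 list. At +23.5 kb the summit was seen in 1 mitotic G1E list at 8552, in 2 asynchronous G1E-ER4 lists at 23517 and 23355, and in 2 mitotic G1E-ER4 lists at 31646 and 38410.

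Further downstream in the gene, 2 sites had better mean ranks in asynchronous G1E-ER4 than in asynchronous G1E, without passing the test. The merged +33.3 kb region, 7452 bp long, ranked 27960, 55392 and 41754 in asynchronous G1E, 22271, 72865 and 59847 in mitotic G1E, 21107, 22787 and 14931 in asynchronous G1E-ER4, and 22847 and 27676 in 2 mitotic G1E-ER4 lists. The peak ranked 27960 had its summit at +32.4 kb, and the one ranked 22271 at +30.7 kb. At +33.3 kb itself mitotic G1E replicate 1 ranked 68904. The asynchronous lines did not overlap in the region, and the difference was 1.06 (SE 0.59, limma adjusted p = 0.307). Counting only summits it was 1.67 (SE 0.57, limma adjusted p = 0.125). The +49.4 kb site, with a summit in all 12 lists within 312 bp in chr5:76020027-76020638, ranked 9914, 27863 and 29737 in asynchronous G1E and 15344, 11145 and 11055 in asynchronous G1E-ER4. In mitotic cells it ranked 22594, 27302 and 25929 in G1E and 82490, 13249 and 32743 in G1E-ER4. The line difference was 0.71 (limma adjusted p = 0.537) and the stage difference in G1E-ER4 -1.41 (adjusted p = 0.208).

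The last named sites lie near the end of Kit and beyond it. The region at +73.3 kb, 14882 bp long, ranked 26324, 17590 and 22785 in asynchronous G1E, 16955, 19068 and 13614 in mitotic G1E, 39035, 24807 and 22888 in asynchronous G1E-ER4, and 30389, 44455 and 52230 in mitotic G1E-ER4. The mitotic lines did not overlap in this region, and the difference was -1.33 (limma adjusted p = 0.135). These best ranks come from different places, in mitotic G1E-ER4 from summits at +78.9 and +80.0 kb. At the +73.3 kb summit itself 2 mitotic G1E lists ranked 19068 and 13614, and 1 mitotic G1E-ER4 list ranked 88976. Counting only summits there, the mitotic line difference was -1.70 (limma adjusted p = 0.403). The +87.5 kb site ranked 39637, 74614 and 71690 in asynchronous G1E, 26273 and 69133 in 2 mitotic G1E lists, 50472 in 1 asynchronous G1E-ER4 list, and 26132 and 53538 in 2 mitotic G1E-ER4 lists. Downstream of the gene the lists held 0 to 5 peaks each, with a line difference of -2.17 peaks (exact permutation p = 0.015, not adjusted). The counts are small, and the share of other windows with such a difference was not computed.

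**Figure D4:**
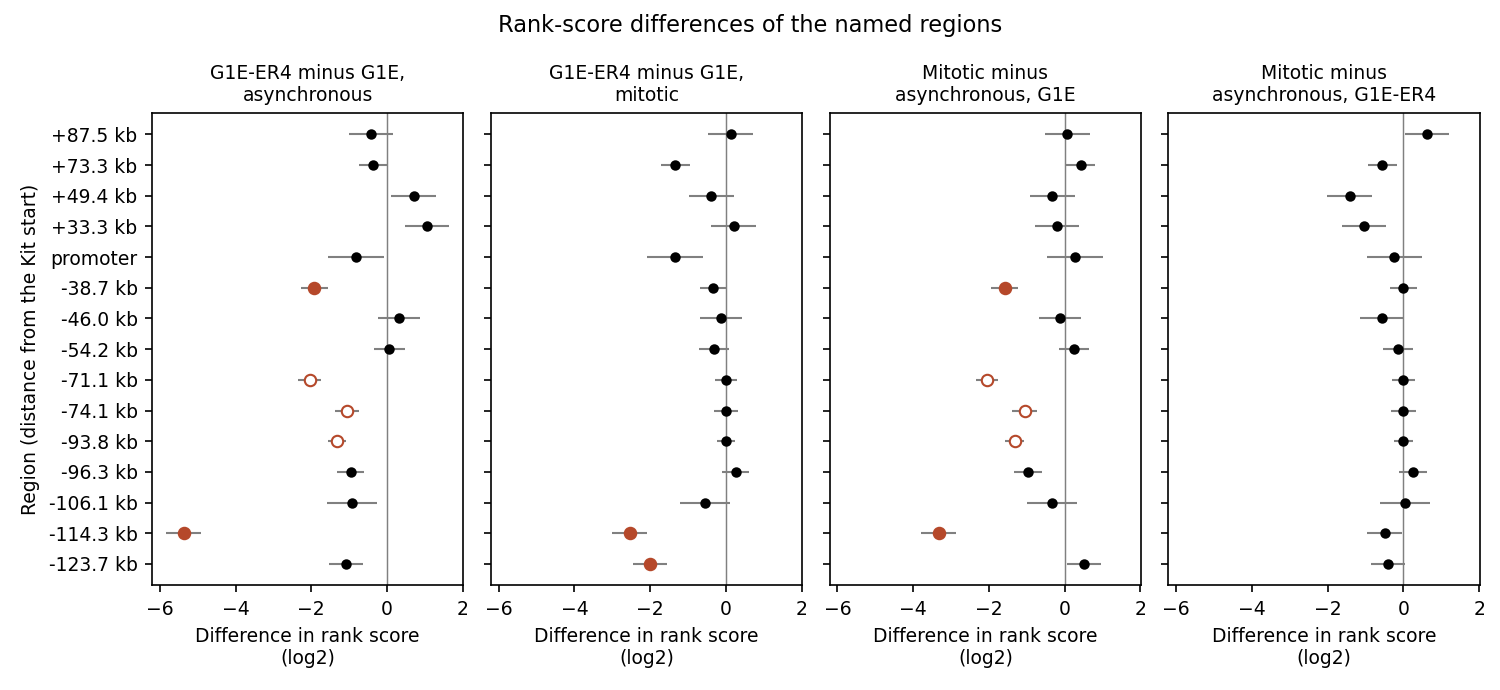
Rank score differences of the 15 named Kit regions with SE bars in 4 contrasts, ordered along the locus. Filled red points passed an adjusted p of 0.05, open red points passed but entered the test only through the asynchronous G1E lists, and the -114.3 kb point at -5.37 is the farthest from 0.

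Presence without rank was also counted. Of the 63 regions, 46 had no peak in any G1E-ER4 list, 1 had none in any G1E list and 16 had peaks of both lines. As shares these are 73.0%, 1.59% and 25.4%, against 33.8%, 25.5% and 40.7% of all regions. Not counting regions that replicate 1 of asynchronous G1E alone held, 22 regions had no G1E-ER4 peak. They are 34.9% of the 63, against 28.5% of all 265371 regions. Both totals still hold the regions not counted, which are 24 of the 63 and 14023 of the 265371. The shares are thus lower than among the remaining regions, and more so in the Kit window. In 6 regions, or 9.52%, all 3 asynchronous G1E lists had a peak and no asynchronous G1E-ER4 list did, a pattern that 2.15% of all regions showed. The reverse was seen in 0 regions, against 1.96% of all. In 5 regions, or 7.94%, all 3 asynchronous G1E lists had a peak and no mitotic G1E list did, against 2.97% of all. In 4 regions, or 6.35%, the 3 asynchronous G1E lists were the only ones with a peak, against 1.34% of all. The Kit window had 0 regions with a peak in every mitotic list of a line and none in the other line's mitotic lists, against 0.581% of all for G1E and 0.536% for G1E-ER4. It also had 0 regions in all 3 mitotic G1E lists and no asynchronous one (2.19% of all), 0 in all 3 asynchronous G1E-ER4 lists and no mitotic one (1.89%), and 0 in all 3 mitotic G1E-ER4 lists and no asynchronous one (0.423%). The 40 regions in only 1 or 2 lists were mostly asynchronous G1E peaks, 31 of them held by lists of that group alone. Of the 29 in a single list, 24 came from replicate 1 of asynchronous G1E, or 82.8%, while that list gave 11.4% of all single-list regions in the genome. Without both replicate 1 libraries of G1E, a choice made after seeing the data, the line difference in peaks was -17 (exact permutation p = 0.01).

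The share of asynchronous Kit regions that mitotic lists also held is given for each line. Of the 27 regions in at least 2 asynchronous G1E lists, the mitotic G1E lists held 14, 8 and 9, a mean of 38.3% ± 11.9 (SD, n = 3), where the same measure over 62366 regions of the genome was 54.4% ± 4.26. Of the 11 regions in at least 2 asynchronous G1E-ER4 lists, the mitotic G1E-ER4 lists held 8, 7 and 6, or 63.6% ± 9.09 (SD, n = 3), and over 63887 regions 63.6% ± 4.68. The regions differ between the lines and no test was made. With regions of all 3 asynchronous lists the values were 55.6% and 81.0%, against 66.7% and 75.2% over the genome. Without asynchronous G1E replicate 1 the G1E value was 55.6%, against 60.7% over the genome.

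The 5 regions of chromosome 5 outside the window whose rank scores were most like those of the -114.3 kb region over the 12 lists had Pearson correlations of 0.964 to 0.944 among 7079 candidates. All 12 points come from the same libraries, the regions were ranked by this correlation, and it is given as a description. They lie at chr5:148468780-148470707, chr5:3196948-3199329, chr5:75681037-75685908, chr5:118808634-118811233 and chr5:75673985-75679208. A pair of them lies upstream of Kit beyond the window, at -287.5 and -294.4 kb from the Kit start. The region at -287.5 kb ranked 7918, 5929 and 8534 in asynchronous G1E, 25028, 26919 and 15480 in mitotic G1E, and 69990 and 58211 in 2 asynchronous G1E-ER4 lists, with no peak in mitotic G1E-ER4. The region at -294.4 kb ranked 7887, 8268 and 12939 in asynchronous G1E, 42867, 23039 and 26932 in mitotic G1E, and 51598, 73426 and 59872 in asynchronous G1E-ER4, also with no peak in mitotic G1E-ER4. In the GRCm38.p6 gene table the protein-coding neighbours of Kit are Pdgfra, a receptor tyrosine kinase of the same family, upstream and Kdr, a VEGF receptor, downstream, and no peak was assigned to either.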

How the data were processed

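DNase-seq peak lists of 12 libraries and 4 authors' pools were used. Per the submitters' processing notes, reads were aligned with Bowtie to mm9. The name of the peak caller was not found in the labels, and neither was the normalization of its signal. The deposited signal per peak is the authors' value, and it served only to rank the 100000 peaks of each list. The Kit coordinates come from the choice of window, since no mm9 annotation was used. Members and lists were chosen with earlier results of these data known.

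Peaks sharing at least 1 bp were merged over the 12 lists on the 19 autosomes and X. Rank scores of regions in at least 3 lists were fitted with limma 3.58.1 in R 4.3.3 (group means, trended variance), with Benjamini-Hochberg adjustment over 103666 regions, and calls were made at 0.05. The fit was tested on simulated data, where it missed many of the lowered regions, so a region not called may still differ. Window totals were compared by two-sided exact permutation tests with Python 3.11.15, and the same test was run on 10036 windows of 230001 bp. Inside 1 line or stage the smallest p of such an exact permutation test is 0.1. Groups of 3 lists that do not overlap reach only this p, and the share of all regions that separate so was not counted. Named regions were in at least 6 lists, in all 3 lists of a group or called, at most 15 by mean score. Alternatives were the 50000 strongest peaks, windows of 300 bp on summits, no filter, linear ranks, the replicate number as a block, shares of chromosome 5 and leaving out libraries. Pathway genes and cell markers were not analysed here. No pair of replicate lists was identical (0 pairs).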

Additional observations from a re-analysis of the deposited data

How the results depend on the processing

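The peak difference between lines kept its direction and its side of 0.05 in 17 of 17 alternatives, and leaving out 1 library moved it from -24.1 to -18.6 peaks. The stage difference in peaks was -3 in the 50000 strongest peaks (exact permutation p = 0.295), and -16.4 to -10.9 without 1 library. With 300 bp summit windows covered length repeats the peak count, at -6.65 kb by line (exact permutation p = 0.005) and -3.85 kb by stage (p = 0.01). Covered length by line was -0.628 percentage points of the covered length of chromosome 5 (exact permutation p = 0.005) and -43.7 to -10.0 kb without 1 library. It passed without asynchronous G1E replicate 2 (-43.7 kb, exact permutation p = 0.035). By stage it was -0.461 percentage points (exact permutation p = 0.025) and -31.4 to 2.28 kb without 1 library. The cause of these moves was not tested.

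Counts of lower Kit regions, 6 by line in asynchronous cells, 2 by line in mitosis and 6 by stage in G1E, changed as follows. With the 50000 strongest peaks they were 3, 2 and 3. Without 1 library they ran from 2 to 5, 0 to 2 and 2 to 6. Without both replicate 1 libraries of G1E, a choice made after seeing the data, each was 1. By exact tests of single regions each was 0, which follows from a smallest p of 0.1. In mitosis the line count was 1 with summit windows, 0 with no filter and 1 on linear ranks. It was 0 without mitotic G1E replicate 2 and without mitotic G1E-ER4 replicate 3. The line by stage count, 0 at first, was 2 with the 50000 strongest peaks, 1 with no filter and 2 on linear ranks. Over all regions, limma calls without 1 library ran from 4907 to 13608 by line in asynchronous cells (12146 with all), 465 to 2862 in mitosis (1077), 6888 to 17191 by stage in G1E (16726) and 1140 to 6835 by stage in G1E-ER4 (4764), and 0 to 6 for line by stage (0). Line by stage calls were 921 with the 50000 strongest peaks, 18 with summit windows, 431 with no filter and 4833 on linear ranks. At -114.3 kb that difference turned to -0.0535 on linear ranks. The mitotic share of G1E regions was 55.6% with all 3 asynchronous lists, against 66.7% over the genome. Without 1 library it was 31.5% to 55.6%, against 53.0% to 61.8%. For G1E-ER4 the share was 81.0% with all 3 asynchronous lists and 48.5% with summit windows, against 75.2% and 51.0%. Without 1 library it was 59.1% to 79.2%, against 62.0% to 71.1%.

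Replicate numbers were treated as names, since not every same-number pair correlated above 0.1. Of 18 same-number pairs, 10 correlated above 0.1, in a range of -0.0276 to 0.254, and 12 of 18 correlated best with their own number. The 6 pairs of replicate 1 all exceeded 0.1. With the replicate block the Kit counts were 6, 2, 6, 0 and 0, and the peak difference between lines was -22.2 (exact permutation p = 0.0313, the smallest possible there). Lists of fixed length with no read counts limit the precision: a site below rank 100000 is not seen.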
